A study of Rattus norvegicus with 10 samples.

Results

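The genes described are 9 of the 22081 genes in the count table and encode the calmodulin-dependent protein kinase (CaMK) family around Camk2b. They were picked by name. Camk2b had already been called lower in rupture-prone intracranial aneurysm (IA) lesions than in the remaining circle of Willis, and the other 8 genes were set beside it as the further subunits of the same kinase (Camk2a, Camk2d, Camk2g), its relatives (Camk1, Camk1d, Camk4) and the kinases upstream of these (Camkk1, Camkk2). The comparison of both tissues thus chose the set, and its values for these genes are given as a description, with no test. From textbook expression, 4 genes were grouped as neuronal (Camk2a, Camk2b, Camk4, Camkk1) and 5 as broadly expressed (Camk2d, Camk2g, Camk1, Camk1d, Camkk2).

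The study compared gene expression in 5 IA lesions and 5 samples of the remaining circle of Willis (control), numbered 4 to 8 in each group, by RNA sequencing of poly(A)-selected RNA. Both groups came from WT female rats operated on at 10 weeks of age and shared every manipulation: bilateral ovariectomy, ligation of the left carotid, right external carotid, right pterygopalatine and left renal arteries, and a high salt diet with 3-aminopropionitrile, which blocks the cross-linking of collagen and elastin. Tissue was taken on day 63 after surgery. A control is thus an artery of an animal that carries a lesion, not of an untreated animal. According to the study's methods each animal gave a lesion and a control. Whether equal numbers belong to one animal is not stated there.

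CaMKs are serine/threonine kinases that are switched on when calcium-loaded calmodulin binds to them. CaMKII assembles from alpha, beta, delta and gamma subunits into a large ring that can keep itself active by autophosphorylation; alpha and beta prevail in neurons, where the enzyme is known for synaptic plasticity, and delta and gamma prevail elsewhere, with roles in the contraction and growth of vascular smooth muscle. CaMKI and CaMKIV are monomers that need phosphorylation by a CaMK kinase (CaMKK) as well as calmodulin for full activity.

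The libraries held 4513515 to 7352626 reads on genes in the lesions and 3017269 to 5692715 in the controls. Mitochondrial genes took 19.4 to 50.3% of these reads in the lesions and 37.9 to 59.0% in the controls. The locus AABR07000398.1 stood at a mean log2 of 18.2 for counts per 1000000 reads. Both are included in the shares over all genes. Gene reads are the sum of exon and intron reads, and introns took 43.5% of all gene reads in the lesions and 39.5% in the controls. Aneurysm 8 stood apart: 743 genes had at least 10 exon reads there, against 2664 to 7590 in the other 9 samples, and its scaling factor from edgeR's TMM method was 0.282, against 0.759 to 1.57. Markers of smooth muscle summed to 292 to 897 counts per 1000000 reads (CPM, on TMM-scaled library sizes) in the lesions and 528 to 1270 in the controls, and those of endothelium to 3.03 to 65.1 and 74.7 to 146. Of 7615 genes tested by edgeR's quasi-likelihood test, 9 were higher in the lesions (0.118%) and 3 were lower (0.0394%) at an adjusted p under 0.05. Of the 9 kinase genes, 8 passed the low-count filter (Camkk1 did not) and 1, Camk2b, was called. The call was lost with the sample number as a block and when any of 9 of the 10 samples was left out, with log2 fold changes of -7.46 to -6.82 (aneurysm 8 was the exception). Since that call led to the choice of the set, nothing is read from this share.

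Among the CaMKII genes, Camk2b gave most exon reads over the controls together (1149), beside 344 for Camk2d, 336 for Camk2g and 266 for Camk2a. In the lesions Camk2b had 1 exon read and Camk2a 0, while Camk2d had 93 and Camk2g 422. Camk2g had exon reads in every lesion, with 1 in aneurysm 8, and Camk2d in 3 lesions, with 1 in aneurysm 6. The promoters of the 4 subunit genes are shown because the subunits split by tissue. The windows come from RefSeq on GRCr8 and run from 250 bases before the annotated start to 50 after it, 5′ to 3′ on the strand of the gene. Capitals mark matches to GGGCGG (the GC box) or TGACG (the core of the cAMP response element) on either strand, overlapping matches included. Camk2b lies at chr14:85147895-85148194 on the minus strand, and Camk2a at chr18:56648930-56649229, Camk2d at chr2:217698301-217698600 and Camk2g at chr15:3553106-3553405 on the plus strand.
Camk2b: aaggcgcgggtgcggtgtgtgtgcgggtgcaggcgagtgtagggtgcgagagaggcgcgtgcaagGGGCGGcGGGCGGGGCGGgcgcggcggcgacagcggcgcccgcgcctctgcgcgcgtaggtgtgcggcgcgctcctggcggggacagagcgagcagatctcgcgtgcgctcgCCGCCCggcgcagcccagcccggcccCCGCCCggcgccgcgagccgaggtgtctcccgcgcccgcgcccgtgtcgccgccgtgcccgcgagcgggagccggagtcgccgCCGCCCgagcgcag
Camk2a: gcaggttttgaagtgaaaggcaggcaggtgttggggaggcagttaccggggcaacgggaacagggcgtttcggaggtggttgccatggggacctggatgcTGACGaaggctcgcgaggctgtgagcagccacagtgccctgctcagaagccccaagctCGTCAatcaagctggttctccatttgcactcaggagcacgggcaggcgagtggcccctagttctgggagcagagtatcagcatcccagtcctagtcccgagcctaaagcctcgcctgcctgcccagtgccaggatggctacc
Camk2d: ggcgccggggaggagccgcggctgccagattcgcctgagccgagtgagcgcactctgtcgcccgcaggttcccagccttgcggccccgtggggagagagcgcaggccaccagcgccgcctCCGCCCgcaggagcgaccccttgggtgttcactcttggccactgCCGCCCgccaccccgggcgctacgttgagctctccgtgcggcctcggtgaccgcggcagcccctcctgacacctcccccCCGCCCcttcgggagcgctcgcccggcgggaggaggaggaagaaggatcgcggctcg
Camk2g: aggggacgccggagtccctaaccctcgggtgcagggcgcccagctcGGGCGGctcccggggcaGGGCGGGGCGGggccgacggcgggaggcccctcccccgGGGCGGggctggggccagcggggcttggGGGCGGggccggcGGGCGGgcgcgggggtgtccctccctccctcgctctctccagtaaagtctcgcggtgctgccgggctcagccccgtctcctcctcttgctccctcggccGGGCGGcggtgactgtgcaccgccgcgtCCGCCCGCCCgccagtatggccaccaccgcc
The Camk2b window held 81.3% G and C, 59 CpG dinucleotides, 6 matches to GGGCGG and 0 to TGACG. The Camk2a window held 61.3% G and C, 12 CpG, 0 matches to GGGCGG and 2 to TGACG. The broadly expressed pair resembled Camk2b in composition, with 74.7% G and C and 3 matches to GGGCGG for Camk2d and 80.0% and 9 matches for Camk2g. Over all 33469 promoter windows of this length, 33.1% held GGGCGG, 21.2% held TGACG, and the median content of G and C was 51.7%. Windows were found for 7 of the 9 genes. A match is a run of letters and not a site shown to be bound.

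Camk2b, the beta subunit that ties CaMKII to actin filaments in neurons, spans 88753 bases of chromosome 14 (86208900 to 86297652 in Rnor6, 27 exons, ENSRNOG00000052080). It had 110, 330, 400, 224 and 193 gene reads in controls 4 to 8 and 4, 0, 3, 2 and 1 in aneurysms 4 to 8. Every control was therefore above every lesion, and Camk2b was the only gene of the set for which the groups did not overlap in CPM. Among all genes tested, 1.54% were lower and 0.499% higher without overlap, and since Camk2b was the start of the set nothing is read from this. Its level was 66.0 ± 38.0 CPM in the controls and 0.441 ± 0.287 CPM in the lesions (SD, n = 5 each), a log2 fold change of -7.20 (SE 1.69). On exons there were 81, 276, 399, 202 and 191 reads in the controls and 1, 0, 0, 0 and 0 in the lesions. The control exon level was 2471 times that of the lesions after TMM scaling, with a 95% counting interval of 443 to 97666 that covers counting error only, here as elsewhere. Introns gave 8.59% of its control reads (95% exact binomial interval 7.10 to 10.3%), far below the 39.5% over all genes, but 9 of its 10 reads in the lesions. Reads across exon junctions were found in control 5 alone, with 109.

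**Figure D1:**
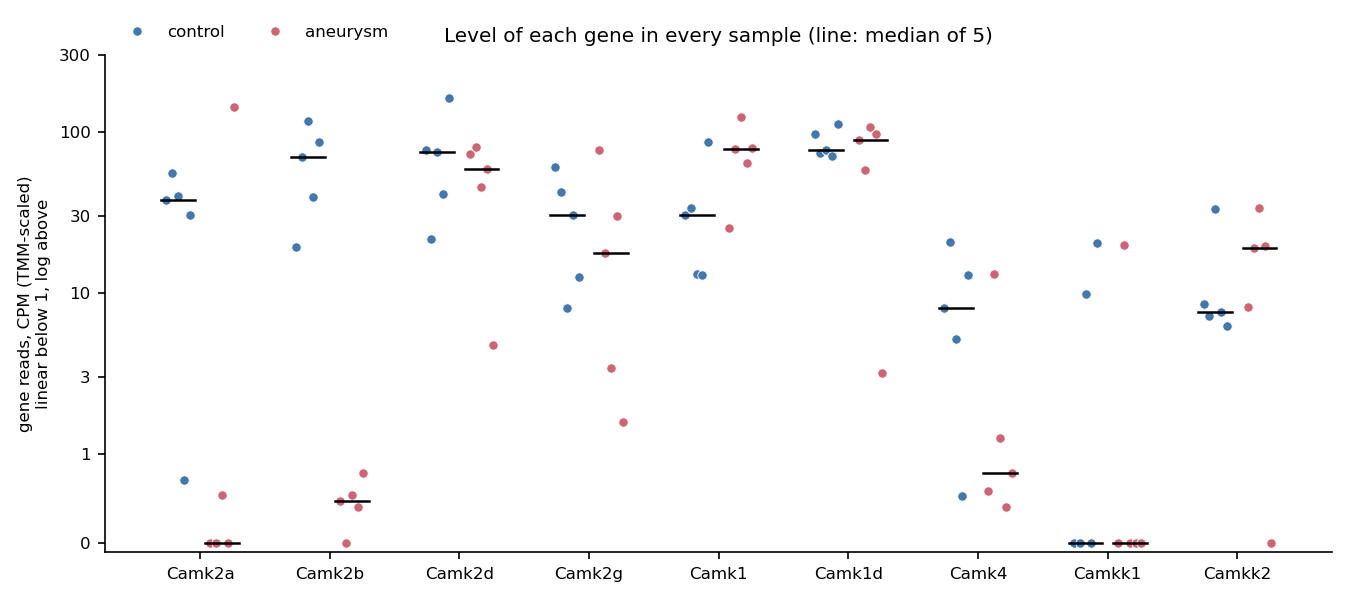
Gene reads of the 9 kinase genes in CPM (vertical axis, linear below 1 and logarithmic above) in each of the 5 controls (blue) and 5 lesions (red), with the median of each group as a line. Camk2b lies at 19.1 to 115.5 CPM in the controls and at 0 to 0.791 CPM in the lesions, and for the other 8 genes the groups overlap; the single high lesion of Camk2a, at 141.6 CPM, is aneurysm 8.

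Camk2a, the alpha subunit that makes up most CaMKII of the forebrain, lies on chromosome 18 (56193977 to 56295869, 28 exons). It had 216, 260, 138, 4 and 68 gene reads in controls 4 to 8 and 0, 0, 3, 0 and 179 in aneurysms 4 to 8. Without aneurysm 8, the lesions held 3 reads against 686, a control level 312 times higher (95% counting interval 106 to 1519). The 179 reads of aneurysm 8 lay in introns without exception, and through the small scaling factor of that library they became 141.6 CPM, above every control. The means were thus close, with 32.7 ± 20.0 CPM in the controls and 28.4 ± 63.3 CPM in the lesions (SD, n = 5 each). The log2 fold change was -0.42 (SE 1.34) with all samples and -7.67 (SE 2.23) without aneurysm 8, and turned positive with DESeq2 (0.48) and with upper-quartile scaling (2.34). On exons Camk2a had 185, 70, 0, 1 and 10 reads in the controls and 0 in each lesion. Over both groups that is 266 reads against 0, at least 191-fold higher in the controls against a floor of 3 reads over the lesions. All 266 crossed an exon junction. In control 6, where Camk2b had its most reads, all 138 reads of Camk2a were intronic.

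Camk2d, the delta subunit and the chief CaMKII of heart and vascular smooth muscle, spans 230915 bases of chromosome 2 (230901125 to 231132039, 27 exons). Its gene reads were 441, 102, 258, 232 and 365 in the controls and 617, 864, 252, 289 and 6 in the lesions. The groups overlapped, with only aneurysm 8 below every control, and the log2 fold change was -0.42 (SE 1.01). On exon reads the log2 fold change was -2.75 (SE 2.25), further from 0 but with a larger standard error, and the groups overlapped there too. There were 141, 1, 113, 1 and 88 exon reads in the controls and 0, 14, 1, 78 and 0 in the lesions, so that introns made up 75.4% of control and 95.4% of lesion reads. By exon reads the control level was 7.95 times higher (95% counting interval 6.31 to 10.1), yet controls 5 and 7 had a single exon read each, within the range of the lesions.

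Camk2g, the gamma subunit, which is expressed in smooth muscle and many other tissues, lies on chromosome 15 (3936785 to 3995915, 25 exons). It had 345, 198, 28, 173 and 28 gene reads in the controls and 659, 190, 19, 149 and 2 in the lesions, a log2 fold change of -0.14 (SE 1.32). The groups overlapped, at 8.09 to 60.0 CPM in the controls and 1.58 to 77.3 CPM in the lesions. Exon reads were 210, 71, 2, 53 and 0 in the controls and 142, 116, 18, 145 and 1 in the lesions. Introns took 56.5% and 58.6% of its reads, and Camk2g was the only gene of the set with an exon read in every lesion.

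**Figure D2:**
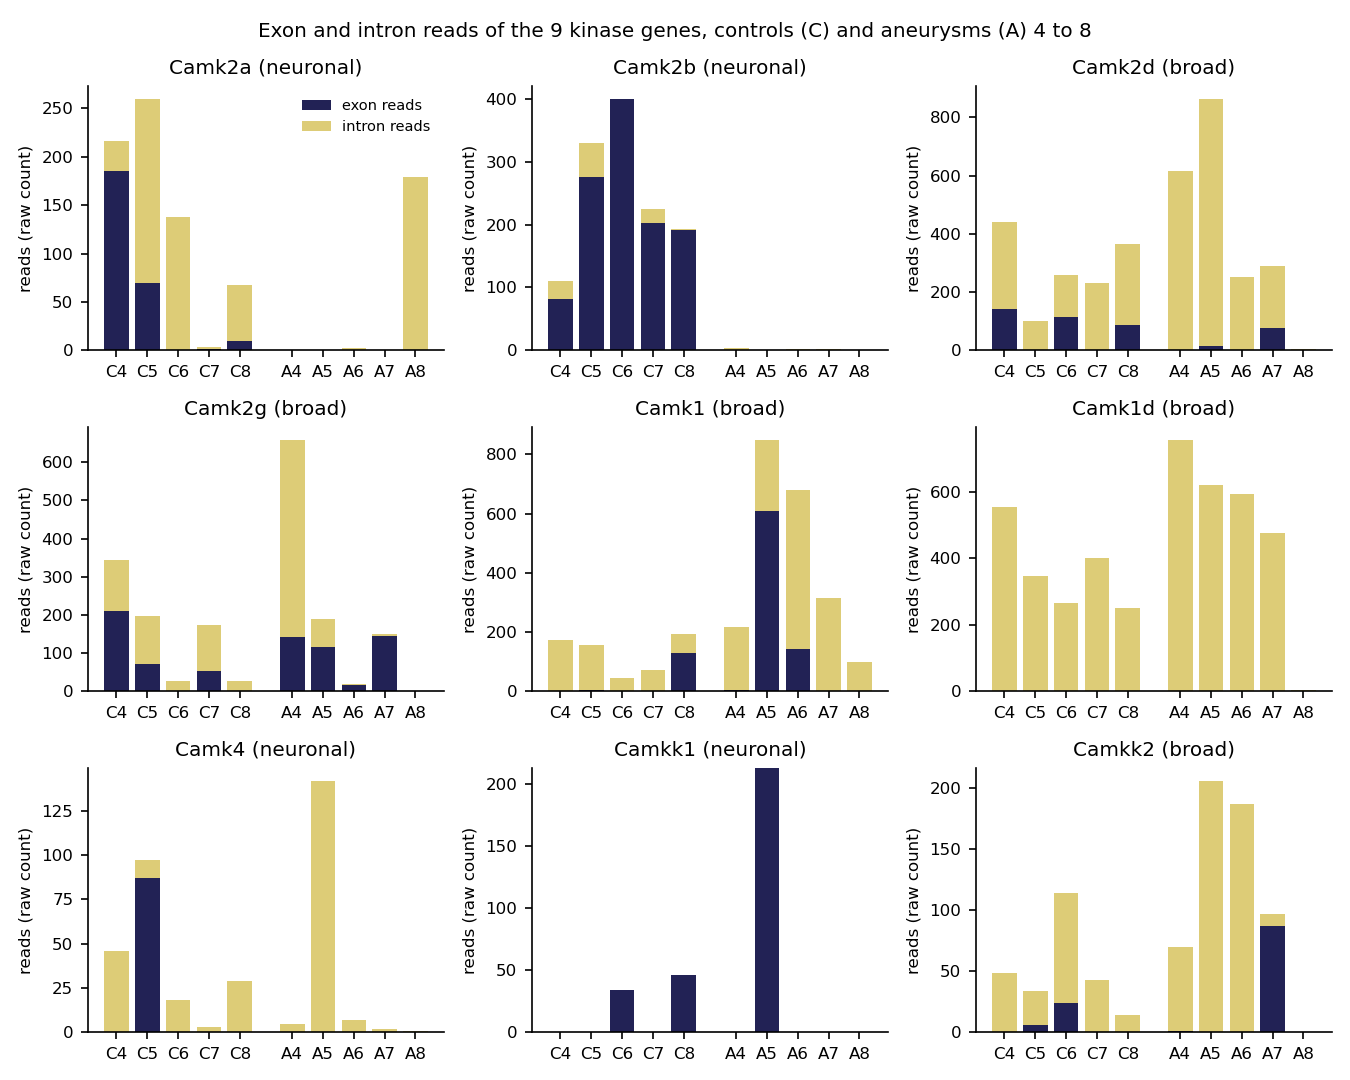
Raw exon reads (dark) and intron reads (light, stacked on top) of each gene in controls (C) and lesions (A) 4 to 8; each panel has its own vertical axis from 0. Exon reads of Camk2b and Camk2a stand in the controls and are 1 and 0 over the lesions, the 179 reads of Camk2a in A8 are intronic, Camk1d has intron reads only and Camkk1 exon reads only.

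The makeup of CaMKII at the RNA level was compared per length, as exon CPM (on TMM-scaled exon libraries) per kilobase of exon. Camk2a and Camk2b together made up 67.0%, 90.4%, 76.9%, 84.5% and 70.3% of the summed level of the 4 subunit genes in controls 4 to 8. In the lesions the share was 1.01% in aneurysm 4 and 0% in the other 4, where 0 of 130, 19, 223 and 1 exon reads of CaMKII came from the neuronal pair. In raw exon reads the pair took 1415 of 2095 in the controls and 1 of 516 in the lesions. Camk2b, which started the set, held 1149 of these control reads, so nothing is read from the contrast in this share. In control 6 the 76.9% was Camk2b alone, as Camk2a had 0 exon reads there. Which neuronal subunit prevailed differed between controls, since Camk2b made up 9.11% of the level in control 4 and 53.0 to 83.3% in the other 4. Gene reads, which are mostly intronic for Camk2d, gave the pair 29.3 to 66.3% in the controls, 0 to 2.17% in aneurysms 4 to 7 and 95.7% in aneurysm 8, where 180 of 188 CaMKII reads were on Camk2a or Camk2b. The summed exon level of the 4 genes was 22.5 to 76.7 in the controls and 0.220 to 13.3 in the lesions. In control 7, the lowest control, Camk2b made up 83.3% of this level, so nothing is read from the gap.

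**Figure D3:**
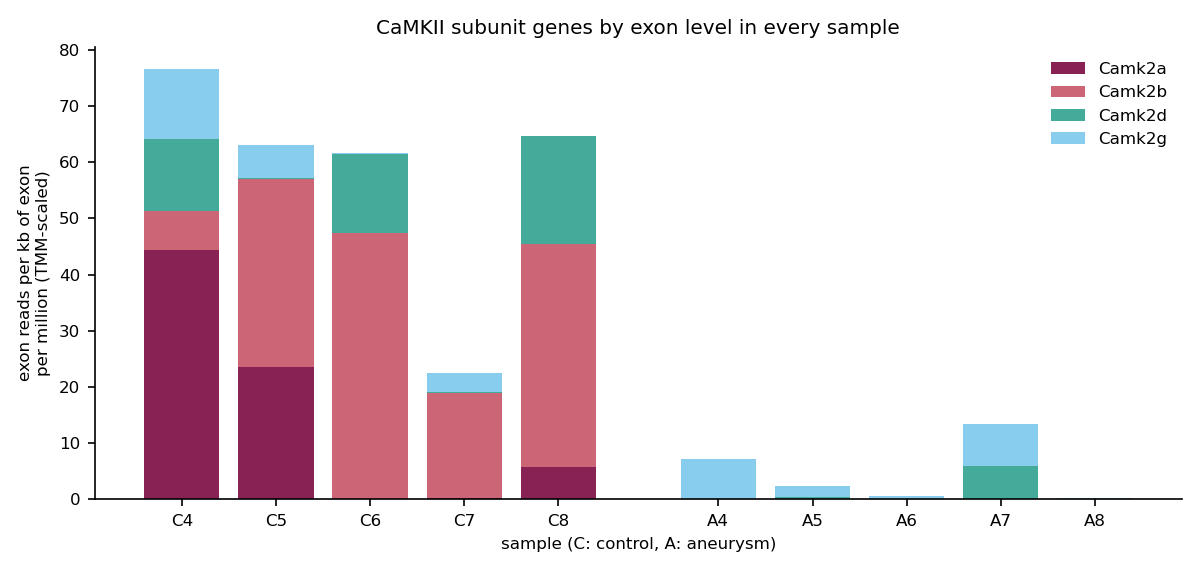
Exon level of the 4 CaMKII subunit genes, stacked, in exon CPM per kilobase of exon (vertical axis from 0), for controls (C) and lesions (A) 4 to 8. The neuronal genes Camk2a and Camk2b take 67.0 to 90.4% of each control bar and at most 1.01% of a lesion bar. The tallest lesion bar (A7, 13.3) is below the lowest control bar (C7, 22.5). Camk2b, which started the set, makes up 83.3% of the C7 bar, so nothing is read from the shares or from this gap.

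Camk1 encodes CaMKI alpha, a broadly expressed kinase that acts on cell motility and growth, and lies on chromosome 4 (145288995 to 145300177, 12 exons). Its gene reads were 175, 158, 45, 73 and 194 in the controls and 216, 850, 679, 315 and 100 in the lesions. It was the gene of the set with the most positive log2 fold change, 1.14 (SE 1.08), at 73.8 ± 34.9 CPM in the lesions and 35.2 ± 30.1 CPM in the controls (SD, n = 5 each). The difference was about as large as its standard error, and only aneurysm 6, at 122 CPM, was above every control. On exons the log2 fold change was -0.17 (SE 2.09): of the 758 lesion reads, aneurysm 5 held 609, aneurysm 6 held 144 and aneurysm 4 held 5, while 129 of the 134 control reads were in control 8. Camk1 overlaps the gene Ogg1, which itself had 124 reads; the strand setting of the counting is not stated, so that reads in the shared stretch cannot be assigned.

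Camk1d encodes CaMKI delta, known from human granulocytes, and spans 406347 bases of chromosome 17 (76532610 to 76938956, 11 exons), the longest gene of the set. Its gene reads were 554, 348, 266, 402 and 250 in the controls and 757, 622, 594, 477 and 4 in the lesions, a log2 fold change of -0.17 (SE 0.97). All 4274 of these reads lay in introns, so that 0 exon reads were found in any of the 10 samples. With the most gene reads of the set, Camk1d thus gave no measure of mature mRNA. Aneurysm 8, with 4 reads, was far below the rest, and without it the log2 fold change was 0.11.

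Camk4 encodes CaMKIV, a nuclear kinase of neurons and T cells that acts on the transcription factor CREB, and lies on chromosome 18 (25749097 to 25965957, 15 exons). It had 46, 97, 18, 3 and 29 gene reads in the controls and 5, 142, 7, 2 and 1 in the lesions. In 4 of the 5 lesions it was at 1.26 CPM or less, against 5.20 to 20.5 CPM in 4 of the 5 controls, but aneurysm 5 (13.1 CPM) and control 7 (0.529 CPM) crossed over. The log2 fold change was -1.46 (SE 2.18), and without aneurysm 5 the control level was 11.9 times that of the lesions (95% counting interval 7.06 to 21.8). The 142 reads of aneurysm 5 were all intronic, and so was every read of Camk4 in the other lesions. Its 87 exon reads all came from control 5, which is at least 62.4-fold higher than a floor of 3 reads for the group of lesions, and rests on this single sample.

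Camkk1 encodes CaMKK alpha, which activates CaMKI and CaMKIV and is most abundant in brain. It lies on chromosome 10 (59585071 to 59608165, 16 exons) and overlaps Itgae, which had 483 reads. Camkk1 was seen in only 3 samples, with 34 reads in control 6, 46 in control 8 and 213 in aneurysm 5. All 293 reads were exonic, the reverse of Camk1d. The log2 fold change of -0.52 (SE 2.24) says little with so many zeros, and without aneurysm 5 the lesions held 0 reads against 80, at least 24.8-fold higher in the controls.

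Camkk2 encodes CaMKK beta, which also activates AMP-activated protein kinase and is found in many tissues, macrophages among them. It lies on chromosome 12 (39253408 to 39302601, 18 exons) and had 49, 34, 114, 43 and 14 gene reads in the controls and 70, 206, 187, 97 and 0 in the lesions. The levels of 12.5 ± 11.5 CPM in the controls and 16.1 ± 12.8 CPM in the lesions (SD, n = 5 each) overlapped, with a log2 fold change of 0.47 (SE 1.69). Introns took 88.2% and 84.3% of its reads. Exon reads were found in 4 samples, 6 in control 5, 24 in control 6, 1 in aneurysm 4 and 87 in aneurysm 7, and all 87 of the last crossed a junction.

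By exon level per kilobase, the order of the mean in the controls was Camk2b (29.2), Camk2a (14.8), Camk1 (10.4), Camk2d (9.26), Camk4 (4.63), Camk2g (4.40), Camkk1 (3.01), Camkk2 (1.41) and Camk1d (0). In the lesions it was Camk1 (8.17), Camk2g (3.41), Camkk2 (2.53), Camk2d (1.28), Camkk1 (1.14) and Camk2b (0.0143), with Camk2a, Camk4 and Camk1d at 0. In both groups the ranges of every pair of neighbours in the order overlapped. By intron level per kilobase, Camk1 led in both groups, at 2.63 in the controls and 6.39 in the lesions, and its range did not overlap that of the next gene in either.

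As classes, the neuronal genes had a median log2 fold change of -0.99 and the broadly expressed genes one of -0.14, beside 0.10 over all genes with reads, a difference between the classes of -0.84. Camk2b, which started the set, is 1 of the 4 neuronal genes, so nothing is read from the class difference. This difference rested on which reads were counted and on which genes had them. On intron reads it was -0.41, without Camkk1, which had no intron reads. On exon reads it was -8.22 as fitted and -6.52 with the genes at 0 in the lesions set to their floor, both without Camk1d, which had no exon reads. It also rested on single lesions, being -4.45 without aneurysm 8, which held 179 of the 182 lesion reads of Camk2a, and -5.22 without aneurysm 5, which held all 213 of Camkk1 and 142 of 157 of Camk4 (-4.12 with Camkk1 at its floor). Summed over the 4 neuronal genes, exon reads came to 166 ± 71.5 CPM in the controls and 4.39 ± 9.65 CPM in the lesions (SD, n = 5 each). The groups did not overlap, at 79.3 to 221 CPM and 0 to 21.7 CPM, and the highest lesion value was that of Camkk1 in aneurysm 5. Camk2b, which started the set, held 1149 of the 1582 control reads in this sum, so nothing is read from the gap. In control 7, Camk2b had 202 exon reads, Camk2a 1, and Camk4 and Camkk1 0. Without Camk2b the groups would thus overlap. Intron reads of the 4 neuronal genes came to 32.4 ± 20.1 and 32.1 ± 62.3 CPM. The 5 broadly expressed genes summed to 239 ± 88.5 CPM of gene reads in the controls and 239 ± 86.7 in the lesions, and to 90.1 ± 68.6 and 49.5 ± 36.9 CPM of exon reads.

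**Figure D4:**
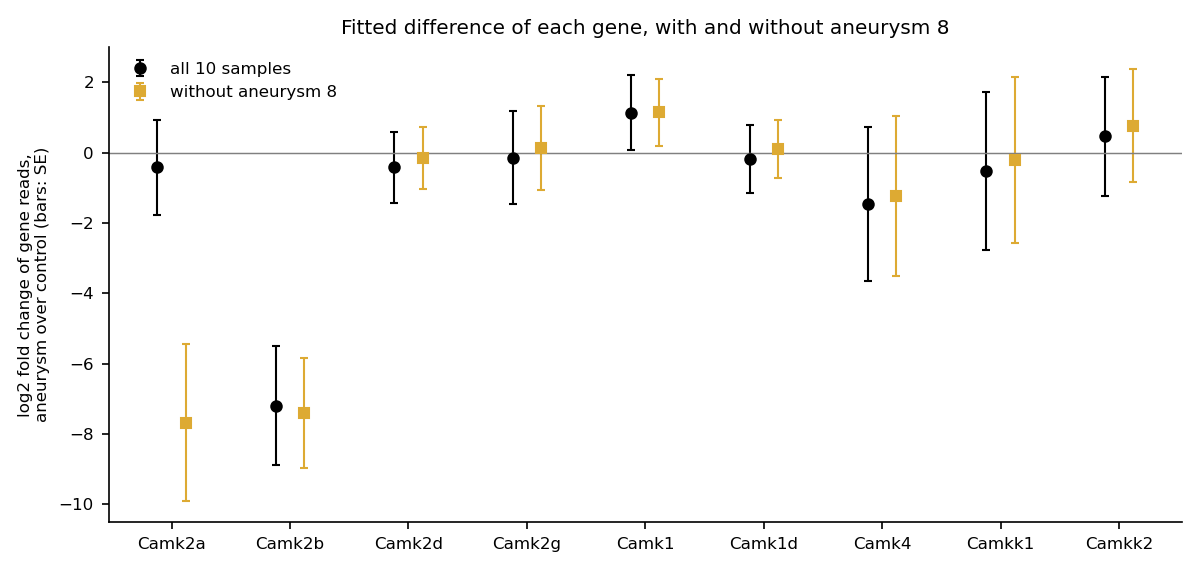
Fitted log2 fold change of gene reads, lesion over control, with its standard error as a bar, for all 10 samples (black circles) and without aneurysm 8 (yellow squares). Camk2b moves from -7.20 to -7.40, Camk2a moves from -0.42 to -7.67, and the bars of Camk2d, Camk2g, Camk1d, Camk4, Camkk1 and Camkk2 reach across 0 in both.

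Markers of neurons, summed over 12 genes, were lower in the lesions than in the controls, as was Camk2b. The sum was 171 to 1155 CPM in the controls and 13.5 to 163 CPM in the lesions, with no overlap. Of single genes tested, 1.54% were lower in the lesions without overlap, and no such share was taken for sums. Of the 7 neuron markers tested, 7 had a negative log2 fold change (median -3.74), as had 3484 of all 7615 genes tested. By edgeR's quasi-likelihood test 0 of the 7 were called. At an unadjusted p under 0.05 by the same test, 5 were lower, as were 2.43% of all tested genes. Nefm had 0 reads in the lesions, while Syt1 had reads in all of them, 609 in aneurysm 4 and 7 to 149 in the others. Of the lesions, aneurysm 8, in which Camk2a had its intron reads, had the highest sum (163 CPM), but from 206 reads, of which 187 were on Map2 alone, and with its small scaling factor; aneurysm 4 had 803 marker reads (94.2 CPM). Astrocyte markers summed to 415 to 770 CPM in the controls and 4.75 to 197 CPM in the lesions. Markers of oligodendrocytes and Schwann cells did not follow, at 34.9 to 182 CPM in the controls and 60.0 to 503 CPM in the lesions, with a median log2 fold change of 0.94 over 7 genes in the unfiltered fit. Endothelial markers were also lower in every lesion, at 3.03 to 65.1 CPM against 74.7 to 146 CPM in the controls. Their 3 tested genes had a negative log2 fold change (median -2.02). The lower sums were thus not limited to neural markers. Fibroblast markers summed to 54.8 to 387 CPM in the controls and 289 to 19984 CPM in the lesions, and macrophage markers to 18.8 to 94.4 and 78.3 to 5907 CPM. In bulk tissue, fewer cells of a type and less RNA per cell cannot be told apart, and the part of neural tissue in the levels of Camk2b and Camk2a was not tested.

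**Figure D5:**
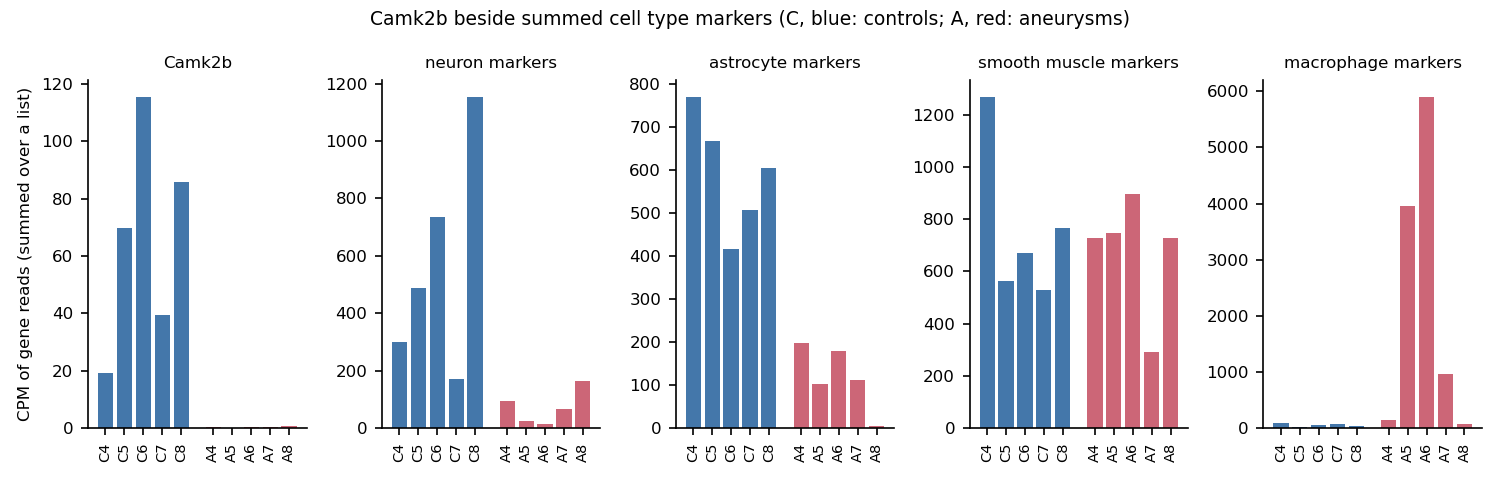
Camk2b (left) and the summed markers of neurons, astrocytes, smooth muscle and macrophages, in CPM of gene reads (each panel with its own axis from 0), in controls (C, blue) and lesions (A, red) 4 to 8. Camk2b, neuron markers and astrocyte markers are each lower in every lesion than in every control, as are endothelial markers, which are not drawn. Smooth muscle markers overlap at 292 to 897 CPM in the lesions and 528 to 1270 CPM in the controls.

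The 5 genes whose profile over the 10 samples was most like that of Camk2b, by the root-mean-square difference of log2 CPM centred per gene among 7607 genes, were Gria1 (0.808), Ptprz1 (0.855), LOC690326 (1.01), Fut9 (1.01) and Mme (1.12). Gria1 encodes an AMPA receptor subunit and a substrate of CaMKII, Ptprz1 a receptor phosphatase of glia, and Mme the peptidase neprilysin. Gria1 had 586 reads in the controls and 6 in the lesions, and 99.8% of its reads over both groups were intronic, against 9.23% of those of Camk2b. Ptprz1 had 679 and 11 reads, and LOC690326 had 462 and 0. Within the kinase set Camk4 stood at 2.82 and Camk2a at 2.87, with a median of 3.62 over all genes compared. Of these genes, 11.2% were closer to Camk2b than Camk4 was, and 12.8% closer than Camk2a. The 5 genes were picked as the closest, so nothing is read from their being closer than the kinase genes.

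The wider calmodulin pathway was read from 49 further genes, of which 47 were matched by symbol and 34 were tested. By edgeR's quasi-likelihood test 0 were called, beside 0.158% of all genes tested in either direction. At an unadjusted p under 0.05, 2 were lower and 0 higher, beside 2.43% and 3.3% of all genes tested. DESeq2 called 1 (Gria1), beside 1.71% of all genes, and limma-voom called 0, beside 0.171%. Their median log2 fold change was -0.20, with 21 negative and 13 positive, beside 0.13 over all genes tested. Of all 7615 genes tested, 3484 were negative and 4131 positive. In DESeq2's own fit the median of all tested genes was higher by 0.27, with 2972 of the 7615 negative. There 17 pathway genes were negative and 17 positive. The 2 lower ones were Camk2n1, an endogenous inhibitor of CaMKII, with 732 reads in the controls and 127 in the lesions and a log2 fold change of -4.21 (SE 1.90), and Gria1, at -6.26 (SE 1.97).

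The synaptic partners of CaMKII had negative values in 6 of 6 tested genes with TMM (median -1.33), beside 3484 of all 7615 genes tested. Upper-quartile scaling, library size alone and DESeq2, which use the same counts, also gave 6 of 6. Of these genes, the NMDA receptor subunit Grin2b, which anchors CaMKII at synapses, stood at -2.06 (SE 1.26) with TMM. Grin1, the obligatory NMDA receptor subunit, was not tested because too few samples reached the count minimum, and had 652 reads in the controls and 14 in the lesions. Camk1g, a CaMKI relative of brain, was also untested, with 269 reads and 1. The calmodulin-dependent phosphatase calcineurin had 4 of 4 subunit genes at values from -0.26 to -0.09 (median -0.19), for example the catalytic subunit Ppp3ca at -0.22 (SE 0.66), but 3 of the 4 turned positive in DESeq2's fit (median 0.09). Calm3, a calmodulin gene, stood at 0.39 (SE 0.78). The entries Calm2_1 and Calm2_2, which did not match the listed symbol and were left out of the pathway counts, stood at 0.07 (SE 1.19) and 0.63 (SE 1.30). Mylk, the myosin light chain kinase of smooth muscle, stood at 0.55 (SE 0.71). It is 1 of 8 tested further calmodulin-dependent enzymes, of which 4 were negative and 4 positive (median -0.44). Of 4 tested CaMK phosphatase genes, 2 were negative and 2 positive (median -0.68). Of 8 tested genes downstream of CaMKK, CaMKI and CaMKIV, 6 were positive and 2 negative (median 0.51), among them the histone deacetylase Hdac4 at 1.29 (SE 0.92) and the AMP-activated kinase subunit Prkaa1 at 1.30 (SE 1.75). None of the tested values in this paragraph passed.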

How the data were processed

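The authors isolated RNA from homogenized lesions and controls, prepared stranded poly(A)-selected libraries, used CLC genomics workbench (version 11) to map reads to Rnor6 and to count them per gene. Strand setting, annotation release and duplicate handling of the counting are not given in the sources used. The deposited counts are raw and cover whole genes (all or uniquely mapped reads), exons, introns and exon junctions. The table also held the authors' own normalized values and comparison, which were not used. It held 22081 genes, 0 of them without a name, and 0 sample columns that matched no sample.

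The kinase genes and all gene lists were chosen with earlier results of these data known. Groups and sample numbers came from the labels. The sources do not tie each sample to an animal, and p-values reflect only the spread between samples, which may be technical. Samples of a group differed by more than sampling noise in every pair (chi-square of at least 55.8 per degree of freedom).

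Gene reads were fitted in R (4.3.3) with edgeR (4.0.16), after filterByExpr (count minimum 10, 7615 genes left) and TMM scaling, by its quasi-likelihood test, with p-values adjusted by Benjamini-Hochberg and a threshold of 0.05. Log2 fold changes of the 9 kinase genes came from the same fit without the filter; the common biological coefficient of variation was 1.38. CPM used TMM-scaled libraries, and profiles were compared on log2 CPM with a prior count of 2 among tested genes with a mean of at least 1 CPM. Ratios of summed reads used 95% exact binomial intervals and, where a group had 0 reads, a floor of 3 reads over the group. PCR reads without molecular identifiers are not independent molecules, so that intervals and floors cover counting error only. Named genes outside the set were the 5 genes most like Camk2b and pathway genes with the lowest p in each list (up to 3). Grin1, Camk1g, Mylk, Calm2_1 and Calm2_2 were chosen after their values were seen. Alternatives used limma-voom (limma 3.58.1), DESeq2 (1.42.0), other scalings, filters and kinds of reads, the sample number as a block, and leaving out samples. Python (3.11.15), numpy (2.4.6), pandas (2.3.3) and matplotlib (3.10.9) served for tables and plots.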

Additional observations from a re-analysis of the deposited data

Results flagged for a closer look

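Within the 18 groups of 5 samples that the 9 genes give, the following 5 values stood far from the other 4 samples of their group by Dixon's ratio at the 95% level. For normally distributed values, chance alone sets apart about 1 in 20 groups. That rate need not hold for these skewed values with many zeros. Camk2a stood at 141.6 CPM in aneurysm 8, where the other lesions had 0 to 0.541 CPM, and its 179 reads there were intronic. Camk4 stood at 13.1 CPM in aneurysm 5, also from intron reads alone, against 0.404 to 1.26 CPM in the other lesions. Camkk1 stood at 19.7 CPM in aneurysm 5, from exon reads alone, against 0 CPM in the others. Among the controls, Camk1 stood at 86.4 CPM in control 8, against 12.9 to 33.4 CPM in the other 4, and Camkk2 at 32.9 CPM in control 6, against 6.23 to 8.52 CPM.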

How the results depend on the processing

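Over all genes, 9 were higher and 3 lower in the lesions. The counts higher and lower were 80 and 50 with DESeq2, 2 and 11 with limma-voom, 1 and 1 with upper-quartile scaling, 1 and 1 with library size alone, 97 and 33 without a low-count filter, 23 and 5 with 10 reads in 3 samples, and 0 and 0 on intron reads; without both samples numbered 8, 21 were higher. Leaving out single samples gave 0 to 28 higher and 1 to 5 lower. The pathway count of 0 became 1 with DESeq2. Camk2b kept its negative log2 fold change in all 21 alternatives in which it was tested (-10.33 to -6.82) and its call in 9 of them. The call was lost with upper-quartile scaling, with library size alone, with the replicate block, and without aneurysm 4, 5, 6 or 7 or any single control (-7.46 to -6.82), but not without aneurysm 8. The difference between the neuronal and the broadly expressed genes (-0.84) stayed negative in all 22 alternatives. Camk2b, which started the set, is a neuronal gene, and all alternatives draw on the same 10 samples. Nothing is therefore read from the constant sign. The difference was -8.22 on exon reads, -4.54 without both samples numbered 8, and -5.22 to -0.41 when single samples were left out.

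With the sample number as a replicate block, 10 genes were higher and 7 lower, and the class difference was -4.84. Same-numbered samples deviated together only weakly (r across genes, which are not independent, -0.02 to 0.14), and samples 6 and 8 alone correlated best with their own number. With 5 samples per group from 2 tissues, this cannot decide whether equal numbers mark one animal. The main fit left the number out because the sources do not tie it to an animal. With the block, Camk2b had an adjusted p of 0.0508 by edgeR's quasi-likelihood test. Depth limits what single samples show: over the 9 genes, aneurysm 8 had 1 exon read, against 149 to 952 in the other lesions and 257 to 617 in the controls.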
